A study of Drosophila melanogaster with 8 samples.

Results

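Testes of Dis3L2 mutant flies were compared with testes of the control strain w1118 by sequencing of total RNA. The comparison covers 4 of the 8 testis libraries of the series, chosen by genotype: 2 from Dis3L2 mutant males and 2 from w1118 males, all 5 days old. The other 4 libraries, 2 from a double mutant of Tailor and Dis3L2 and 2 from a Tailor mutant, entered the same statistical fit and are quoted where they bear on a gene. Per the labels, each library comes from its own dissection, and all libraries were pooled over 2 flow cells. Alleles, zygosity and parent strains were not stated in the sources used here, so genotype and strain background cannot be told apart between Dis3L2 mutant and w1118 testes. In all 4 groups the material was the whole dissected testis, a mixture of germline and somatic cells.

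Dis3L2 is a 3′ to 5′ exonuclease that degrades cytoplasmic RNA and prefers RNA ending in a tail of uridines. In Drosophila such tails are added by Tailor, a terminal uridylyltransferase, and the pair acts in turn: one marks an RNA at its end and the other removes it. The testis contains germ cells at every stage from stem cell through meiosis to elongated sperm, together with somatic cyst cells and a muscle sheath, and many of its transcripts are made only there.

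The targeted gene followed the labels. Dis3l2 (FBgn0035111, listed under its older name CG16940) lies on the plus strand of chromosome arm 3L at 212709 to 216479 of genome build dm6. Its level was 9.99 and 10.6 CPM (counts scaled to a common library size) in Dis3L2 mutant testes, against 115 and 117 CPM in w1118 testes, and the groups did not overlap. The mutant kept 8.88% of the w1118 level, a log2 fold change of -3.49 ± 0.12 (standard error from the fit, as for every fold change below; adjusted p = 8.76e-05). Among the other libraries Dis3l2 read 30.7 and 30.75 CPM in the double mutant and 89.6 and 93.9 CPM in the Tailor mutant. Tailor itself (FBgn0037470, 3R:7083225-7086083, minus strand) had 96.8 and 95.6 CPM in Dis3L2 mutant testes and 82.6 and 87 CPM in w1118 testes, a difference of 0.18 ± 0.11 on the log2 scale that did not pass the test (adjusted p = 0.38).

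Total counts were 16904111 and 20125955 in the Dis3L2 mutant libraries and 19801288 and 21809441 in the w1118 libraries, within a range of 9781275 to 30059737 over all 8. Ribosomal RNA took 24.6% and 1.43% of the counts in Dis3L2 mutant libraries and 7.77% and 2.42% in w1118 libraries, so it separated replicates more than genotypes. Correlations of log CPM were 0.979 between the Dis3L2 mutant libraries, 0.986 between the w1118 libraries and 0.939 to 0.949 across genotypes. Summed levels of 10 testis germline markers were alike, at 2250 and 2520 CPM in Dis3L2 mutant and 2360 and 2500 CPM in w1118 libraries, and the tissue label was borne out by them. Summed levels of 4 accessory gland markers were 2290 and 3040 CPM in Dis3L2 mutant libraries, against 8160 and 8230 CPM in w1118 libraries, and none of the 4 passed the test. Summed levels of 4 ejaculatory bulb and duct markers were 492 and 793 CPM in Dis3L2 mutant and 1680 and 1570 CPM in w1118 libraries. Dup99B held most of that sum, at 393 and 525 CPM in Dis3L2 mutant and 1340 and 1220 CPM in w1118 libraries. Ebp differed between the Dis3L2 mutant replicates, at 7.79 and 119 CPM. EbpIII alone of these markers passed the test, and it was higher (1.28). Of 5 cyst and hub markers, Fas3 held most of the sum, at 97.7 and 94.7 CPM in Dis3L2 mutant and 47.5 and 50.7 CPM in w1118 libraries; the log2 differences of tj (-0.41), zfh1 (-0.12), eya (0.40) and upd1 (0.27) lay on either side of 0, and none of the 5 passed the test. In bulk RNA, fewer cells of a type and less RNA per cell cannot be told apart, here and in every result below.

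Of 14246 features with adequate counts, 13489 genes and 757 transposon insertions, 1314 passed the test, which is an adjusted p no higher than 0.05, and are termed called. That is 9.22% of those tested: 4.7% were called higher in Dis3L2 mutant testes and 4.53% lower. Non-overlap of the 4 libraries was common at this group size and held for 61.8% of the features. Calls were also found among expressed genes. Of the 8695 genes with at least 5 CPM in all 4 libraries, 671 were called, 386 higher and 285 lower. That is a smaller share than the 9.1% of all tested genes. At the extremes, 81 genes were at least 10-fold higher and 110 at least 10-fold lower, while 396 called genes changed less than 2-fold. Against the Tailor mutant in place of w1118, 1845 features were called in the Dis3L2 mutant (13%), 858 higher and 987 lower.

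**Figure D1:**
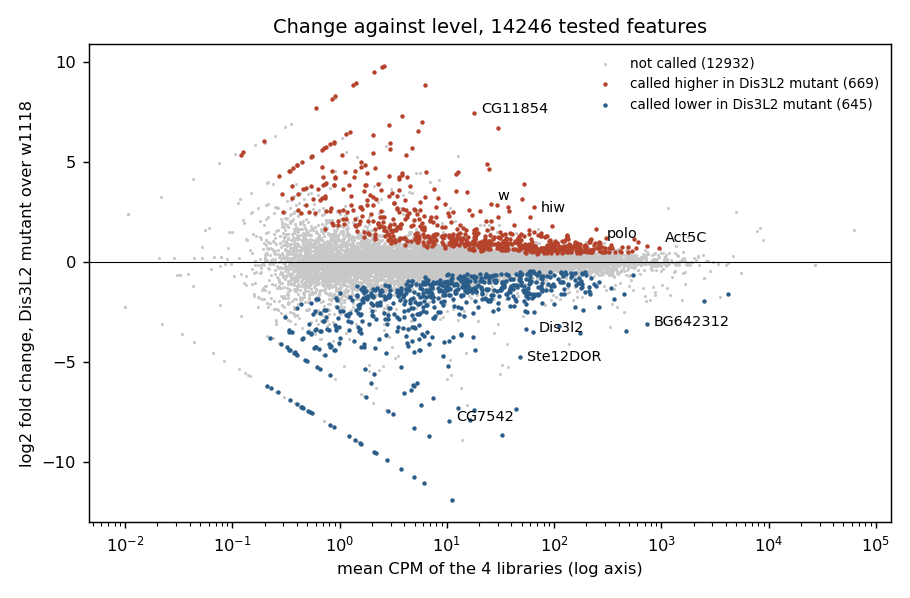
Log2 fold change, Dis3L2 mutant over w1118 (y axis), against the mean level of the 4 libraries in CPM (x axis, log scale), one point per feature tested. The 669 features called higher are red, the 645 called lower are blue and the 12932 not called are grey, and calls appear at all levels of expression.

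The number of calls rested heavily on single libraries. Without w1118 replicate 1 or 2 the count was 276 or 306, without Dis3L2 mutant replicate 1 or 2 it was 339 or 352, and without Tailor mutant replicate 1 or 2 it was 2367 or 2513. A set of 200 features kept its call and direction in each of the 8 fits that left out one library, 81 of them higher and 119 lower, and every one changed at least 2-fold. They are termed retained calls below; since the same libraries chose them, they are a description and not a further test. The retained calls were 185 genes (125 protein-coding, 78 of the 185 higher) and 15 transposon insertions. Of the 185 genes, 71 had at least 5 CPM in all 4 libraries. With the level of accessory gland genes as a covariate, 805 features were called in place of 1314.

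Genes around Dis3l2 itself were lower as a block. The stretch runs from Pdk1 to Ptpmeg on 3L, from 129450 to 356050, a span of 226601 bases, and its bounds were set after the values were seen. It held 45 tested genes, of which 43 were below w1118 and 24 were called lower, 53.3% against 4.53% over all features. None was called higher by the quasi-likelihood test, and 1 was higher at an unadjusted p below 0.05 and 0 with DESeq2. The median gene stood at 48.9% of its w1118 level, a log2 fold change of -1.04 with quartiles of -1.18 and -0.76. Without Dis3l2 the other 44 genes gave the same picture, with 23 called lower and a median of -1.03. Among the 29 of them with at least 5 CPM in all 4 libraries, all 29 were below w1118 without overlap and 17 were called. Over all 14246 features, 4383 were lower without overlap.

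Pdk1, the kinase that activates Akt downstream of phosphoinositide 3-kinase, marked the left end. It had 113 and 107 CPM in Dis3L2 mutant and 227 and 221 CPM in w1118 testes (-1.03 ± 0.11, adjusted p = 0.00306), 49.1% of the w1118 mean, and the groups did not overlap. The phosphatidylinositol 4-kinase fwd, needed for cytokinesis of spermatocytes, had 103 and 95.0 CPM in Dis3L2 mutant and 215 and 221 CPM in w1118 testes (-1.14 ± 0.15, adjusted p = 0.00506). The groups were apart by far more than the replicates for both genes. Dic61B (3L:149679-152589), a dynein intermediate chain gene, fell further than most members, with 26.6 and 28.1 CPM in Dis3L2 mutant and 77.3 and 78.7 CPM in w1118 testes (-1.51 ± 0.12, adjusted p = 0.000943). At the right end the tyrosine phosphatase gene Ptpmeg had 42.6 and 39.3 CPM in Dis3L2 mutant and 77.2 and 73.4 CPM in w1118 testes (-0.88 ± 0.11, adjusted p = 0.00479). Pdk1 and Dic61B are retained calls, whereas fwd lost its call without w1118 replicate 2 (adjusted p = 0.0529) or Dis3L2 mutant replicate 2 (0.0594), and Ptpmeg without w1118 replicate 1 (0.0653).

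Single members varied around that median. Prp4k, a splicing-associated kinase, changed by -1.17, the THO complex subunit thoc7 by -1.14, the mitochondrial ribosomal protein mRpL17 by -1.11 and the nucleosome remodelling subunit E(bx) by -1.004. Smaller changes were seen for the nuclease Tudor-SN, with 121 and 108 CPM in Dis3L2 mutant and 178 and 179 CPM in w1118 testes, and larger ones for Kaz1-ORFB (-1.98) and NitFhit (-1.40). The 2 members above 0 were CG34454 (2.00, adjusted p = 0.102) and asRNA:CR45806 (0.12), neither of which passed the test. Without w1118 replicate 1 or 2 the count of lower calls in the stretch was 9 or 8, and without Dis3L2 mutant replicate 1 or 2 it was 14 or 9. The median nevertheless stayed between -1.11 and -0.92 under the alternatives run. The calls of E(bx) and Tudor-SN each ended without any 1 library other than those of the Tailor mutant, where the adjusted p reached 0.189 and 0.222. That of mRpL17 ended without any of the 4 libraries compared (up to 0.141), that of Prp4k without either w1118 library or Dis3L2 mutant replicate 2 (up to 0.06) and that of thoc7 without either w1118 library or Dis3L2 mutant replicate 1 (up to 0.0669).

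Outside these bounds the shift was smaller, which is in part built in, since the bounds were set after the values were seen. The 6 tested genes nearer the 3L telomere had a median of -0.51 and 1 lower call, and the next 112 genes, within 1 Mb beyond Ptpmeg, had a median of 0.00 with 7 called lower and 4 higher. Farther along 3L, 5.15% of 447 genes at 1 to 5 Mb from Dis3l2 and 5.56% of 2032 genes beyond that were called lower. The stretch accounts for 3.72% of all lower calls; outside it 1290 features were called, 669 higher and 621 lower. Relative to the Tailor mutant, 25 of the 45 genes were called lower, and the median change was -0.88. In the double mutant the median of the same genes over w1118 was -0.16. What lowers the stretch was not tested.

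**Figure D2:**
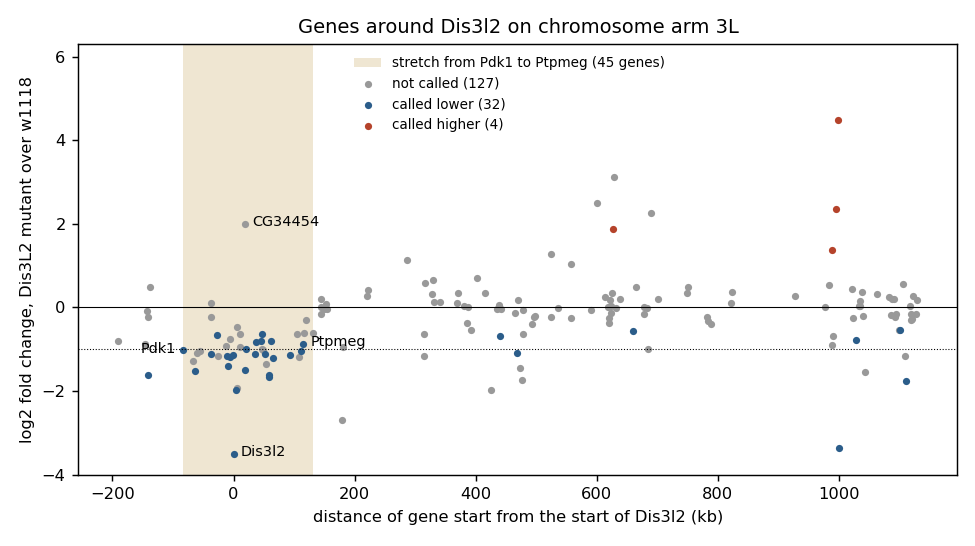
Log2 fold change, Dis3L2 mutant over w1118 (y axis), of 163 tested genes against the distance of each gene from the start of Dis3l2 in kilobases (x axis), with the stretch from Pdk1 to Ptpmeg shaded and a dotted line at -1. Genes called lower (32) are blue, called higher (4) red and not called (127) grey; within the shading 43 of 45 genes lie below 0.

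The largest rises were in genes nearly silent in w1118 testes. CG11854 (FBgn0039299, 3R:25242020-25243262, plus strand) had 35.6 and 36.5 CPM in Dis3L2 mutant testes, against 0.291 and 0.120 CPM in w1118 testes (7.46 ± 0.37, adjusted p = 0.000182). It was also near 0 in the other mutants, at 0.096 and 0.104 CPM in the double mutant and 0.100 and 0.241 CPM in the Tailor mutant, so high levels occurred in the Dis3L2 single mutant libraries alone. It overlaps bam, the gene that drives spermatogonia into differentiation, on the opposite strand; bam had 4 and 4.07 CPM in Dis3L2 mutant and 4.02 and 3.73 CPM in w1118 testes. The noncoding gene lncRNA:CR45982 had 53.2 and 64.5 CPM in Dis3L2 mutant and 0.582 and 0.562 CPM in w1118 testes (6.67 ± 0.31, adjusted p = 0.000174). It overlaps Pxn on the opposite strand. The strand setting of the authors' counting was not stated in the sources used here, so reads of overlapping genes may not be separable.

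Several other genes rose from near 0. Sox21b, a SOX family transcription factor, had 5.86 and 5.74 CPM in Dis3L2 mutant and 0.146 and 0.0401 CPM in w1118 testes (5.94 ± 0.55, adjusted p = 0.00178), and 7.96 and 7.06 CPM in the double mutant. The DM-domain gene dmrt93B rose by 4.74 on the log2 scale, the axon guidance receptor robo3 by 3.35 and ppk19, of the degenerin and epithelial sodium channel family, by 3.58. These were low-abundance transcripts, with 2.95 to 5.26 CPM in the Dis3L2 mutant libraries. Of the noncoding genes, lncRNA:CR43451 had 11.1 and 13.99 CPM in Dis3L2 mutant testes and 0 and 0.0401 CPM in w1118 testes, a ratio of 586 (exact 95% interval 105 to 23200). The gene lncRNA:CR45568 had 5.06 and 5.44 CPM in Dis3L2 mutant testes and no count in w1118 testes, at least 80.3-fold higher with 3 counts put over the w1118 group. It was also present in the other mutants, at 6.68 and 5.40 CPM in the double mutant and 3.155 and 1.73 CPM in the Tailor mutant. Intervals and bounds cover counting error only. Among these, dmrt93B and robo3 were chosen after their values were seen.

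The largest retained falls mirrored this pattern, with transcripts of w1118 testes missing from the mutant. CG7542 (FBgn0036738, 3L:17549826-17550980, plus strand) had 0.133 and 0.0428 CPM in Dis3L2 mutant testes, against 22.4 and 19.7 CPM in w1118 testes, a ratio of 268 (interval 91.3 to 1300; -7.96 ± 0.33, adjusted p = 0.000171). In the other mutants it stood at 11.9 and 13.1 CPM in the double mutant and 12.3 and 11.6 CPM in the Tailor mutant. CG8960 had 0.0666 and 0 CPM in Dis3L2 mutant and 13.6 and 13.3 CPM in w1118 testes, a ratio of 517 (interval 92.4 to 20400). Its level was 0.0642 and 0.104 CPM in the double mutant and 2.35 and 2.33 CPM in the Tailor mutant. The noncoding lncRNA:CR43949 had no count in Dis3L2 mutant testes and 9.36 and 10.6 CPM in w1118 testes, at least 128-fold lower. It was as low in the other mutants, with no count in the Tailor mutant and 0 and 0.104 CPM in the double mutant, and its call ended with the level of accessory gland genes as a covariate. Another DM-domain gene, dmrt99B, went the opposite way to dmrt93B, with 0.0666 and 0 CPM in Dis3L2 mutant and 3.54 and 3.41 CPM in w1118 testes (-6.74).

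At higher levels, AstCC, an allatostatin neuropeptide gene, had 0.733 and 0.642 CPM in Dis3L2 mutant and 17.4 and 18.3 CPM in w1118 testes (-4.70 ± 0.26, adjusted p = 0.000249). The gene fipi had 1.86 and 1.28 CPM in Dis3L2 mutant and 21.2 and 20.98 CPM in w1118 testes (-3.76). It was as low in the other mutants, at 1.57 and 1.45 CPM in the double mutant and 1.05 and 1.29 CPM in the Tailor mutant, which sets w1118 apart from all mutant libraries. Trf5 was low in both the Dis3L2 mutant and the double mutant, with 1.33 and 1.93 CPM in Dis3L2 mutant and 32.2 and 37.2 CPM in w1118 testes (-4.38 ± 0.22, adjusted p = 0.000182) and 1.28 and 1.25 CPM in the double mutant. AstCC, fipi, Trf5 and dmrt99B were chosen after their values were seen.

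Of the 71 retained genes with at least 5 CPM in all 4 libraries, 31 were higher and 40 lower. The higher ones included stai, Klp67A and Gem3, chosen here after their values were seen. The gene stai, which encodes the tubulin-binding protein stathmin, had 285 and 297 CPM in Dis3L2 mutant and 133 and 143 CPM in w1118 testes (1.079 ± 0.12, adjusted p = 0.00322). Klp67A, a spindle kinesin, had 161 and 173 CPM in Dis3L2 mutant and 79.2 and 83.8 CPM in w1118 testes (1.04 ± 0.11, adjusted p = 0.00286). Gem3, a DEAD-box helicase of the SMN complex that assembles spliceosomal particles, had 164 and 133 CPM in Dis3L2 mutant and 41.6 and 42.9 CPM in w1118 testes (1.81 ± 0.14, adjusted p = 0.000881). The double mutant was high for all of them as well, with 339 and 307 CPM of stai, 188 and 184 CPM of Klp67A, and 114 and 106 CPM of Gem3.

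Larger rises among expressed genes were seen for hiw, CG17177 and sordd2, the last chosen after its values were seen. The E3 ubiquitin ligase gene hiw (X:15010137-15063429), known as a regulator of synapse growth, had 132 and 93.9 CPM in Dis3L2 mutant and 17.2 and 16.9 CPM in w1118 testes (2.72 ± 0.29, adjusted p = 0.00306). It stayed near the control in the double mutant, at 20.1 and 25.9 CPM. By contrast sordd2 was high in both, with 91.8 and 108 CPM in Dis3L2 mutant and 20.8 and 20.8 CPM in w1118 testes (2.26 ± 0.13, adjusted p = 0.000341) and 92.7 and 83.6 CPM in the double mutant. CG17177 (3L:14697313-14701678) had 96.0 and 83.6 CPM in Dis3L2 mutant and 10.6 and 9.71 CPM in w1118 testes (3.15 ± 0.24, adjusted p = 0.000943). The Tailor mutant had 124 and 104 CPM and the double mutant 127.6 and 79.8 CPM, so w1118 stood below every mutant library for CG17177. The mutant groups thus did not share one pattern over these genes.

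A further 8 retained rises are given here, chosen after their values were seen. The chitinase-like growth factor Idgf3 had 351 and 394 CPM in Dis3L2 mutant and 115 and 123.3 CPM in w1118 testes (1.64 ± 0.17, adjusted p = 0.00276). The transferrin Tsf2, a septate junction protein, had 93.2 and 96.2 CPM in Dis3L2 mutant and 33.6 and 34.3 CPM in w1118 testes (1.48 ± 0.13, adjusted p = 0.00153). The UDP-glucose dehydrogenase sgl, which supplies precursors of proteoglycans, had 50.1 and 49.4 CPM in Dis3L2 mutant and 9.84 and 11.2 CPM in w1118 testes (2.24 ± 0.22, adjusted p = 0.00245). The septate junction gene Lac rose by 1.28, the phosphatidylserine synthase Pss by 1.27, the acyltransferase Gnpat of ether lipid synthesis by 1.30, the peroxisome assembly gene Pex10 by 2.00, and Der-1, of the pathway that clears misfolded proteins from the endoplasmic reticulum, by 1.30.

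Retained falls outside the 3L stretch included Blm, MFS9 and CG5612. The RecQ helicase Blm, which resolves recombination intermediates, had 17.98 and 12.5 CPM in Dis3L2 mutant and 67.6 and 70.5 CPM in w1118 testes (-2.19 ± 0.20, adjusted p = 0.0018), while the double mutant had 99.7 and 103 CPM. The transporter gene MFS9 had 28.3 and 31.1 CPM in Dis3L2 mutant and 127 and 122 CPM in w1118 testes (-2.07 ± 0.18, adjusted p = 0.00122). CG5612 had 51.7 and 65.6 CPM in Dis3L2 mutant and 301 and 321 CPM in w1118 testes (-2.41 ± 0.28, adjusted p = 0.00364). In each case the 4 libraries did not overlap. These genes were likewise chosen after their values were seen.

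**Figure D3:**
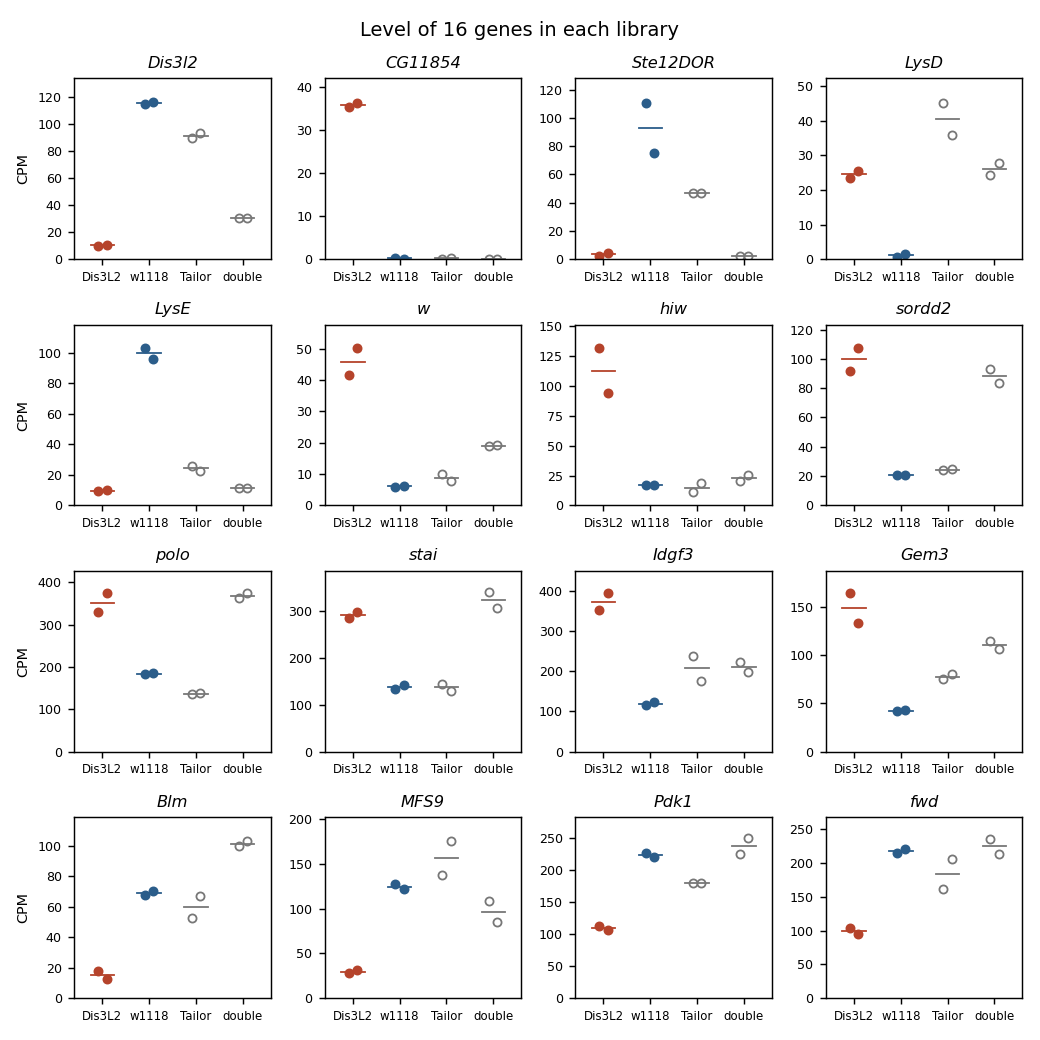
Level in CPM (y axis, linear from 0) of 16 genes in each library, in the order Dis3L2 mutant, w1118, Tailor mutant and double mutant, one point per library and a bar at the mean of 2. Dis3l2 reads 9.99 and 10.6 CPM in the Dis3L2 mutant, against 115 and 117 CPM in w1118, and CG11854 is high in the Dis3L2 mutant libraries alone.

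Of 13 genes of meiotic entry and division, 4 rose and 0 fell (median 0.10, against 4.7% called higher over all features); 1 was lower at an unadjusted p below 0.05 and 0 with DESeq2. Polo kinase (polo), which acts in mitosis and both meiotic divisions, had 329 and 375 CPM in Dis3L2 mutant and 184 and 185 CPM in w1118 testes (0.93 ± 0.12, adjusted p = 0.00479). Both mutant libraries exceeded both control libraries, as they did in the double mutant (362 and 376 CPM). The cohesion protector mei-S332 rose by 0.73 ± 0.13 (adjusted p = 0.0142). Cyclin B (CycB) rose by 0.68 ± 0.13, and twe, the meiotic Cdc25 phosphatase, by 0.56. No call was retained: that of polo ended without w1118 replicate 1 (adjusted p = 0.0582) or 2 (0.0556), those of mei-S332 and CycB without either w1118 library or Dis3L2 mutant replicate 2 (up to 0.119 and 0.161), and that of twe without any 1 library other than those of the Tailor mutant (up to 0.239). The list had 0 higher calls without w1118 replicate 1 or 2, and 3 or 1 without Dis3L2 mutant replicate 1 or 2.

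Other germline lists gave few calls. Of 18 early germline genes 2 were called and of 14 genes of the meiotic arrest complex tMAC and the testis TAFs 1, which is 11.1% and 7.14%, against 9.22% of all features. Among the early germline genes, tut, a partner of bam in ending spermatogonial divisions, rose by 1.23 (23.8 and 27.0 CPM in Dis3L2 mutant, 10.3 and 11.4 CPM in w1118 testes), and the RNA-binding gene Rbp9 fell by 0.80 on the log2 scale. Of the tMAC and TAF genes, which turn on spermatocyte transcription, topi fell by 0.58 on the log2 scale. In that list 2 were higher and 4 lower at an unadjusted p below 0.05, and DESeq2 called 0 higher and 3 lower. None of the 10 sperm chromatin genes (median 0.26), 9 sperm tail Mst(3)CGP genes (-0.08), 19 comet and cup genes (0.21), 12 Y-linked fertility genes (0.18) or 14 individualization genes (0.13) was called by the quasi-likelihood test. At an unadjusted p below 0.05 there were 4, 0, 5, 1 and 2 of them, and DESeq2 called 2, 0, 1, 0 and 1. The call of tut ended without either w1118 library or Dis3L2 mutant replicate 2, and those of Rbp9 and topi without any of the 4 libraries compared; the adjusted p was highest without w1118 replicate 1, at 0.0977, 0.119 and 0.175.

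Testis-specific proteasome subunits gave calls in both directions. These are paralogs that replace general subunits during sperm formation. Of 15 tested, 3 rose and 2 fell (median 0.13), against 4.7% of all features called higher and 4.53% lower. Prosbeta4R2 had 145 and 173 CPM in Dis3L2 mutant and 78.1 and 75.9 CPM in w1118 testes (1.05 ± 0.13, adjusted p = 0.00439), and Prosalpha4T1 rose by 1.09. Prosbeta5R2 had 68.5 and 86.8 CPM in Dis3L2 mutant and 135 and 147 CPM in w1118 testes (-0.86 ± 0.16, adjusted p = 0.0167). Prosbeta4R2 lost its call without w1118 replicate 2 (adjusted p = 0.051), Prosalpha4T1 without any of the 4 libraries compared (up to 0.183), and Prosbeta5R2 without either w1118 library or Dis3L2 mutant replicate 1 (up to 0.107). Without w1118 replicate 1 or 2 the list held 1 or 0 higher calls and 0 lower calls.

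RNA decay factors other than Dis3l2 gave no calls, against 9.22% of all features called. Lists this short would hold few calls at that share. None of 13 exosome and other 3′ to 5′ decay genes (median -0.07), 6 terminal nucleotidyltransferases (0.21), 24 deadenylation and decapping genes (-0.05) or 8 mRNA surveillance genes (-0.18) passed edgeR's quasi-likelihood test. At an unadjusted p below 0.05 the counts were 0, 2, 2 and 0, and DESeq2 called 0, 1, 0 and 0. Among small RNA pathways, 1 of 11 microRNA and siRNA genes was called, 9.09% against 9.22% of all features. This was loqs, the partner of Dicer, with 252 and 263 CPM in Dis3L2 mutant and 181 and 163 CPM in w1118 testes (0.58 ± 0.12, adjusted p = 0.026). That call ended without any 1 library other than those of the Tailor mutant (adjusted p up to 0.222).

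The piRNA pathway, which silences transposons in the germline with small guide RNAs, had 1 gene higher and 1 lower of 32 (median -0.16). That is 6.25% called, against 9.22% of all features. At an unadjusted p below 0.05, 2 were higher and 6 lower, and DESeq2 called 2 higher and 3 lower. The helicase spn-E had 59.5 and 55.6 CPM in Dis3L2 mutant and 28.4 and 27.96 CPM in w1118 testes (1.03 ± 0.18, adjusted p = 0.0152). Its call ended without any of the 4 libraries compared (adjusted p up to 0.132, without w1118 replicate 2). The gene del (deadlock), which marks piRNA clusters for transcription, had 27.4 and 25.98 CPM in Dis3L2 mutant and 60.2 and 68.4 CPM in w1118 testes (-1.27 ± 0.13, adjusted p = 0.00254), a retained call. Both genes overlap a neighbour on the other strand.

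Stellate, an X-linked repeat family that piRNAs from the Y-linked Suppressor of Stellate repeats keep silent in testes, was lower in Dis3L2 mutant testes. Of 48 genes of both kinds 14 had adequate counts, with 7 called lower and 0 higher (median -3.82). Over all features 4.53% were called lower and 4.7% higher. None of the 14 was higher at an unadjusted p below 0.05 or with DESeq2. The 7 calls were among the 8 Stellate genes, whose log2 fold changes ran from -7.55 to -3.55, whereas the 6 Suppressor of Stellate genes ran from -0.75 to 0.87 with 0 called (0 also at an unadjusted p below 0.05 and with DESeq2). No difference between the 2 kinds was tested. Summed over the tested members the level was 6.06 and 8.69 CPM in Dis3L2 mutant and 125 and 85.8 CPM in w1118 testes. Ste12DOR (FBgn0044817, X:14000210-14000889) carried most of it, with 2.33 and 4.49 CPM in Dis3L2 mutant and 111 and 74.9 CPM in w1118 testes (-4.74 ± 0.34, adjusted p = 0.000737), a retained call. It had 2.41 and 1.97 CPM in the double mutant and 46.6 and 46.7 CPM in the Tailor mutant, so the Dis3L2 mutant and the double mutant were both low. The remaining called members had few counts; Ste:CG33244, for example, had none in Dis3L2 mutant and 1.41 and 0.802 CPM in w1118 testes, at least 13.8-fold lower. That call ended without w1118 replicate 1 (adjusted p = 0.0582) or Dis3L2 mutant replicate 2 (0.06), and the list held 1, 2, 2 and 2 lower calls without w1118 replicate 1 or 2 or Dis3L2 mutant replicate 1 or 2. The copies are near-identical and the treatment of reads with several positions was not stated in the sources used here, so counts of single members are uncertain.

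Transposon insertions split by family. Of 757 tested insertions, 38 were called higher and 48 lower, 11.4% against 9.22% of all features. Burdock, an LTR retrotransposon, fell in 9 of 15 insertions and rose in 0, with a family sum of 7.46 and 7.06 CPM in Dis3L2 mutant and 50 and 40.3 CPM in w1118 testes, a log2 ratio of -2.64. HeT-A, the non-LTR element that maintains Drosophila telomeres, fell in 7 of 16 insertions, with 76.9 and 69.1 CPM in Dis3L2 mutant and 196 and 214 CPM in w1118 testes (-1.49). The I element fell in 7 of 9 insertions (3.13 and 1.8 CPM in Dis3L2 mutant, 12.4 and 11.3 CPM in w1118 testes) and Tirant in 4 of 8 (1.4 and 0.642 CPM in Dis3L2 mutant, 7.9 and 8.5 CPM in w1118 testes). The groups did not overlap for any of these sums. None of the I element or Tirant calls was retained; that of I{}769, for example, ended without any of the 4 libraries compared (adjusted p up to 0.0729).

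Other families were higher. The LTR element 3S18 rose in 4 of 10 insertions and fell in 0, with 546 and 550 CPM in Dis3L2 mutant and 283 and 301 CPM in w1118 testes, a log2 ratio of 0.91, and it had the largest sum of the families with 3 or more calls shown in the plot. The sum of mdg3 was 50.2 and 36.9 CPM in Dis3L2 mutant and 20.8 and 15.3 CPM in w1118 testes, with 2 of 10 insertions called. Single insertions behaved unlike their family: opus{}2507 had 42.4 and 49.8 CPM in Dis3L2 mutant and 1.36 and 1.69 CPM in w1118 testes (4.91 ± 0.24, adjusted p = 0.000182), in a family with 1 called insertion of 14. The insertion rover{}1275 had no count in Dis3L2 mutant and 2.76 and 2.13 CPM in w1118 testes, at least 30.9-fold lower. Of the 15 retained insertions, 6 were Burdock and 5 HeT-A, each of them lower. Whether the strains carry the same insertions was not stated in the sources used here, and reads of repeated copies may not be assigned to one insertion.

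**Figure D4:**
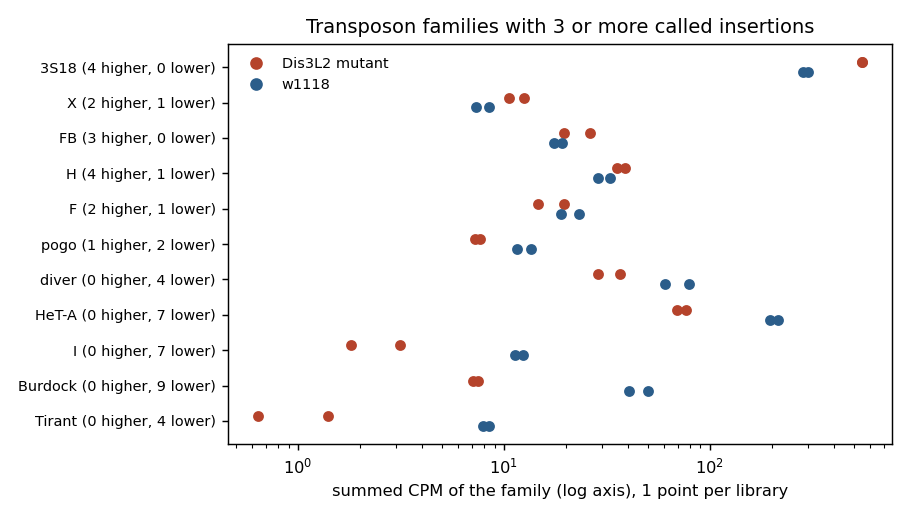
Summed level in CPM (x axis, log scale) of transposon families with at least 3 called insertions and at least 7 tested, one point per library, Dis3L2 mutant above w1118 in each family. Burdock sums to 7.46 and 7.06 CPM in the Dis3L2 mutant, against 50 and 40.3 CPM in w1118, and 3S18 to 546 and 550 CPM, against 283 and 301 CPM.

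Transcripts of the accessory gland, the organ that makes seminal fluid proteins, were lower in Dis3L2 mutant libraries. Of 65 tested genes, 13 were called lower, against 4.53% of all features, and 0 higher (median -1.42; 63 of 65 were lower without overlap, against 61.8% of features without overlap in either direction), and none was higher at an unadjusted p below 0.05 or with DESeq2. Their sum was 14400 and 19100 CPM in Dis3L2 mutant and 40300 and 36500 CPM in w1118 testes. The summed ejaculatory bulb and duct markers given above were lower in the same libraries, although none of them was called lower and EbpIII rose by 1.28 (adjusted p = 0.0101). The seminal fluid gene Acp98AB had 51.5 and 110 CPM in Dis3L2 mutant and 1032 and 700 CPM in w1118 testes (-3.42 ± 0.59, adjusted p = 0.0144), with 550 and 416 CPM in the double mutant and 1530 and 513 CPM in the Tailor mutant. The most abundant called gene, CG17097, had 1892 and 2317 CPM in Dis3L2 mutant and 6031 and 6690 CPM in w1118 testes (-1.60 ± 0.28, adjusted p = 0.0151). Acp98AB lost its call without 3 of the 4 libraries compared (adjusted p up to 0.102, without Dis3L2 mutant replicate 1) and CG17097 without any of the 4 (up to 0.109). The list held 1 or 4 lower calls without w1118 replicate 1 or 2, 1 or 3 without Dis3L2 mutant replicate 1 or 2, and 49 or 50 without Tailor mutant replicate 1 or 2. The accessory gland lies beside the testis, and how much of it was carried into each dissection was not tested.

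Digestive enzyme transcripts were set apart by one control library. Their sum over 40 genes was 189 and 102 CPM in Dis3L2 mutant and 260 and 1290 CPM in w1118 testes, so the high value belonged to w1118 replicate 2. The trypsin betaTry had 0.266 and 0.0856 CPM in Dis3L2 mutant and 10.6 and 120 CPM in w1118 testes; its call (adjusted p = 0.0245) ended without w1118 replicate 2 (0.136), either Dis3L2 mutant library (0.149 and 0.18) or either double mutant library. Lysozymes did not follow that library. LysE had 9.39 and 10.1 CPM in Dis3L2 mutant and 103 and 96.2 CPM in w1118 testes (-3.35 ± 0.14, adjusted p = 0.000171), while its neighbour LysD had 23.5 and 25.6 CPM in Dis3L2 mutant and 0.679 and 1.48 CPM in w1118 testes (4.47 ± 0.33, adjusted p = 0.000869). Both are retained calls, and they lie near each other at 3L:1212827-1213406 and 3L:1210717-1211196 within a cluster of close paralogs, whose reads may be shared. The other mutants were also low in LysE (11.4 and 11.4 CPM in the double mutant, 25.8 and 22.6 CPM in the Tailor mutant) and high in LysD (24.4 and 27.95 CPM in the double mutant, 45.3 and 35.9 CPM in the Tailor mutant), with w1118 apart from all 3 mutant groups.

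Antimicrobial peptide genes gave higher calls without a higher sum. Of 26 tested, 7 rose and 0 fell (median 0.67), against 4.7% of all features called higher and 4.53% lower. Their sum was 842 and 1060 CPM in Dis3L2 mutant and 1160 and 924 CPM in w1118 testes, and the groups overlapped. Of the 26, 16 had a fold change above 0 and 6 were lower without overlap, while 4 were lower at an unadjusted p below 0.05 and 3 with DESeq2. CecA1, which encodes a cecropin, had 69.3 and 81.0 CPM in Dis3L2 mutant and 34.4 and 26.8 CPM in w1118 testes (1.30 ± 0.17, adjusted p = 0.00607). Its call ended without w1118 replicate 2 (adjusted p = 0.0564). Without w1118 replicate 1 or 2 the list held 1 or 0 higher calls, without Dis3L2 mutant replicate 1 or 2 it held 4 or 1, and without either Tailor mutant library 11. Recognition and Toll or IMD pathway genes gave 3 higher and 0 lower calls of 33, 9.09% against 9.22% of all features. The 3 were PGRP-LB (1.81), PGRP-LF (1.71) and the receptor Tl (0.85). Each call ended without any 1 of the w1118, Dis3L2 mutant or double mutant libraries. Summed levels of 5 blood cell markers were 196 and 187 CPM in Dis3L2 mutant and 117 and 107 CPM in w1118 libraries. Hml and Pxn held most of that sum. On the log2 scale srp (0.01) and eater (-0.1) lay near 0, and NimC1 differed by 0.66. Pxn (1.33) was the only marker of the 5 that was called, and it overlaps lncRNA:CR45982, which also rose, on the opposite strand. Hml had 126 and 121 CPM in Dis3L2 mutant and 73.7 and 66.3 CPM in w1118 libraries, which did not pass the test (adjusted p = 0.357). The part of blood cells in these calls was not tested.

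Signalling and structural genes of somatic cells gave scattered calls. Of 26 cyst and hub genes 2 rose (7.69%, against 9.22% of all features called; median 0.06): Socs36E, an inhibitor of JAK/STAT signalling, had 22.4 and 20.2 CPM in Dis3L2 mutant and 7.71 and 8.58 CPM in w1118 testes, and upd3, a cytokine of that pathway, had 3.86 and 2.70 CPM in Dis3L2 mutant and 0.242 and 0.201 CPM in w1118 testes. Both calls ended without any of the 4 libraries compared, where the adjusted p reached 0.0977 and 0.197. The hub adhesion gene Fas3 had 97.7 and 94.7 CPM in Dis3L2 mutant and 47.5 and 50.7 CPM in w1118 testes without passing the test (adjusted p = 0.0551). The peroxidasin Pxn, which builds basement membrane, had 38.6 and 34.2 CPM in Dis3L2 mutant and 15.7 and 13.3 CPM in w1118 testes (1.33 ± 0.16, adjusted p = 0.00404), a retained call. Its reads may not be separable from those of lncRNA:CR45982, which overlaps it on the opposite strand and rose as well. Muscle sheath genes were not called (0 of 22, median -0.12; 1 at an unadjusted p below 0.05 and 1 with DESeq2).

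**Figure D5:**
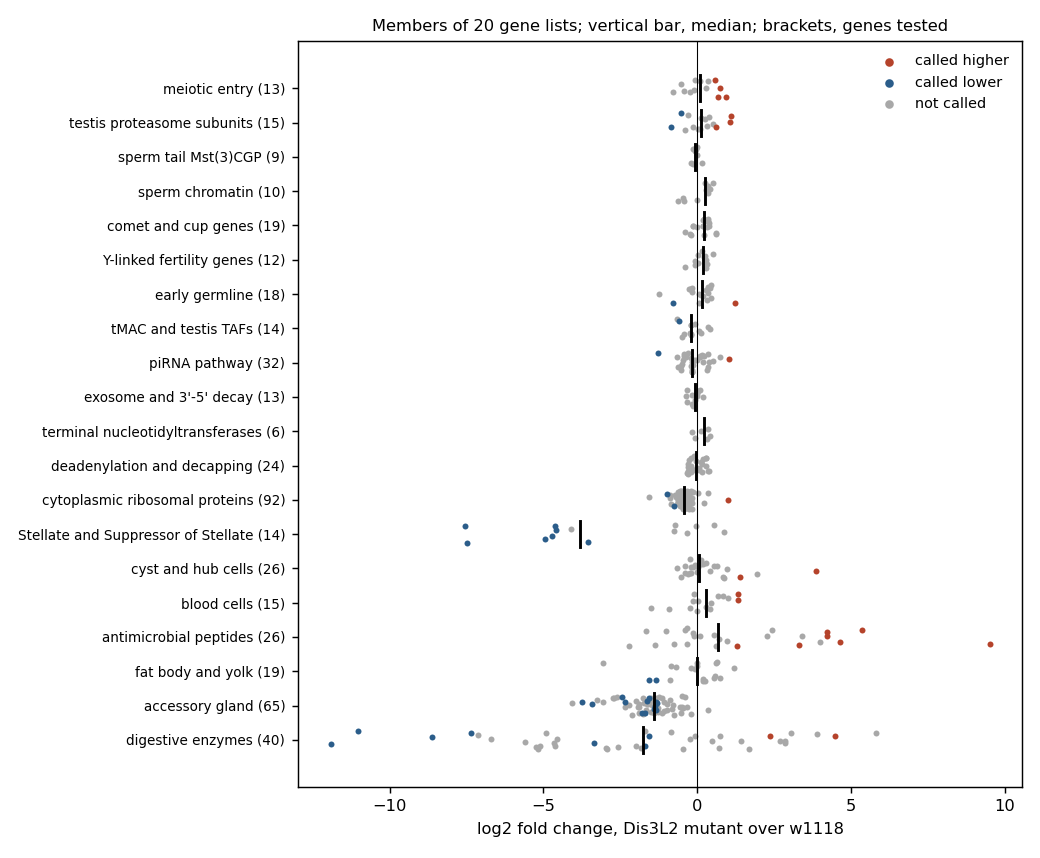
Log2 fold change, Dis3L2 mutant over w1118 (x axis), of the tested members of 20 gene lists (rows), one point per gene with a bar at the list's median; called members are coloured. Accessory gland members lie mostly below 0 (median -1.42), whereas the sperm and RNA decay lists centre near 0.

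Ribosomal protein genes leaned lower with few calls. Of 92 cytoplasmic genes, 80 were lower without overlap, against 4383 of all 14246 features. The median was -0.44, with 4 genes above 0. Of the 92, 1 was called higher and 2 lower, 3.26% against 9.22% of all features. Their sum was 16900 and 20400 CPM in Dis3L2 mutant and 27200 and 24400 CPM in w1118 testes. RpL12 had 156 and 195 CPM in Dis3L2 mutant and 356 and 338 CPM in w1118 testes (-0.98 ± 0.21, adjusted p = 0.0312), a call that ended without any 1 library other than those of the Tailor mutant (up to 0.185). DESeq2 called 14 of the genes lower, and without Tailor mutant replicate 1 or 2 the count was 26 or 27; without any 1 of the w1118 or Dis3L2 mutant libraries it was 0. Of 55 translation factors 4 rose and 1 fell, 9.09% called against 9.22% of all features. The largest was eIF3d2, a germline paralog of an initiation factor 3 subunit, with 330 and 364 CPM in Dis3L2 mutant and 175 and 177 CPM in w1118 testes (0.98 ± 0.14, adjusted p = 0.00702). Its call ended without w1118 replicate 1 (adjusted p = 0.0705) or 2 (0.0658), as did all 4 higher calls of that list.

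Eye pigment genes gave 2 calls of 16 tested, both higher (12.5%, against 9.22% of all features); the control strain w1118 takes its name from its mutation of w. The pigment transporter w (X:2790599-2796466, minus strand) had 41.6 and 50.2 CPM in Dis3L2 mutant and 5.96 and 6.18 CPM in w1118 testes (2.92 ± 0.19, adjusted p = 0.000445). The double mutant had 18.8 and 19.3 CPM and the Tailor mutant 9.97 and 7.71 CPM, so the Dis3L2 mutant libraries were the highest of all 8. Hn, the phenylalanine hydroxylase of pigment synthesis, had 15.1 and 18.5 CPM in Dis3L2 mutant and 2.52 and 2.05 CPM in w1118 testes (2.88 ± 0.19, adjusted p = 0.000445). Both are retained calls.

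The cytochrome P450, chemoreceptor and cuticle lists had members called in either direction. The shares called were 11.7%, 15.7% and 20%, against 9.22% of all features. Of 77 cytochromes P450, 5 rose and 4 fell, and Cyp4p1 had 17.9 and 16.9 CPM in Dis3L2 mutant and 3.35 and 3.05 CPM in w1118 testes (2.44 ± 0.16, adjusted p = 0.000445), a retained call. Of 70 chemoreceptors, 4 rose and 7 fell; the odorant receptor Or22b had 0 and 0.0428 CPM in Dis3L2 mutant and 4.41 and 6.74 CPM in w1118 testes, a ratio of 218 (interval 38.8 to 8650). Of 45 cuticle and chitin genes, 7 rose and 2 fell. Cpr50Ca had 27.2 and 17.3 CPM in Dis3L2 mutant and 1.70 and 2.09 CPM in w1118 testes, whereas Cpr66Cb had 0.133 and 0.128 CPM in Dis3L2 mutant and 9.80 and 9.31 CPM in w1118 testes. The calls of Or22b and Cpr66Cb ended without either Dis3L2 mutant library (adjusted p up to 0.0601 and 0.0635) and that of Cpr50Ca without w1118 replicate 1 (0.0504). Without w1118 replicate 1 or 2 the cuticle list held 0 or 2 higher calls and the P450 list 1 or 2, and without either Dis3L2 mutant library the chemoreceptor list held 0 lower calls.

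Noncoding genes were called more often than coding ones. Of 1528 genes annotated as ncRNA, 15.8% were called, 90 higher and 151 lower, against 8.34% of 11589 protein-coding genes, 528 higher and 439 lower. No difference between these shares was tested. One of the retained falls, lncRNA:CR46039, had 0.0666 and 0.0856 CPM in Dis3L2 mutant and 7.81 and 7.86 CPM in w1118 testes, a ratio of 100 (interval 34 to 489), and 20.6 and 23.1 CPM in the double mutant. Small structural RNAs gave 1 call: of 142 snoRNAs 1 was lower (10 at an unadjusted p below 0.05 and 4 with DESeq2), and of 29 snRNAs and 12 RNA polymerase III small RNAs none was called (1 each at an unadjusted p below 0.05 and 0 each with DESeq2). Over all features 9.22% were called. The call of the 1 lower snoRNA, snoRNA:Psi28S-1192b, ended without any 1 library other than those of the Tailor mutant (adjusted p up to 0.185).

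Called genes were otherwise spread over the genome. On the X chromosome 4.9% of 2060 tested genes were called higher and 2.43% lower, on 3L 4.44% and 6.28% of 2613. Runs of at least 3 neighbouring tested genes called in the same direction numbered 19 with 66 genes, 7 runs higher and 12 lower. One on 2L held CG5888, Idgf1, Idgf2 and Idgf3, with rises of 1.04, 2.49, 1.02 and 1.64. Idgf4, on the X, rose as well, by 1.27. Idgf3 was the retained call among them; Idgf1 and Idgf2 lost theirs without any of the 4 libraries compared (adjusted p up to 0.174 and 0.148) and Idgf4 without either w1118 library or Dis3L2 mutant replicate 1 (up to 0.0874). In windows of 21 tested genes, 175 of 13184 had a median below -0.5 and 44 of these touched the stretch around Dis3l2. Lower medians were found in a few windows elsewhere, such as -1.46 at 3L:13285265-13381346 with 6 lower calls, against -1.11 with 13 lower calls for the lowest window of the stretch.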

How the data were processed

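Total RNA of testes was sequenced in 8 libraries, 2 for each of 4 genotypes. Trimming with Trimmomatic 0.36 and alignment to dm6 with HISAT2 are named in, and stated per, the submitters' processing notes. The authors deposited a table of raw read counts per feature, 17471 genes and 5416 transposon insertions; the counting program, annotation, strand setting and how reads with several positions were treated were not stated in the sources used here. The number of table columns belonging to no sample was 0.

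Counts were fitted in R 4.3.3 by edgeR 4.0.16 with TMM scaling, features kept by filterByExpr at a minimum count of 10, and 1 quasi-likelihood model over all 8 libraries whose only term was the group. Every adjusted p is from edgeR's quasi-likelihood test with Benjamini-Hochberg adjustment over the features tested, 14246 in the main fit. Fits that left out a library were filtered again, so the number of features tested differed there. A feature was called at 0.05 or less. CPM, counts brought to a common library size, use the scaled library sizes. Standard errors were computed as the size of the log2 fold change over the square root of its F. For a group with no count, a bound puts 3 counts over that group; where it had 1 to 3, the ratio of scaled counts has an exact 95% conditional binomial interval. The reads carry no molecular identifiers. The fit was tested on simulated data.

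Genes were placed by symbol on the Ensembl annotation of BDGP6, which has dm6 coordinates: 13553 by current symbol, 3775 by an older one, 143 not. Positions are 1-based.

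Genes named are the targeted genes, the largest rises and falls among called genes without overlap, the most abundant calls, up to 3 called members of a list and, separately, genes said to be chosen after their values were seen. Members and lists were chosen with earlier results of these data known. Alternatives were 2 other scalings, DESeq2 1.42.0, 2 other filters, fits with a replicate block, a covariate or only 4 libraries, without small RNAs, a 2-fold minimum and each library left out in turn.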

Additional observations from a re-analysis of the deposited data

How the results depend on the processing

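Under 2 other scalings, DESeq2, 2 other filters and small RNAs left out, the count of features called between Dis3L2 mutant and w1118 testes lay between 1278 and 1625, against 1314. It was 915 with a 2-fold minimum, 805 with the accessory gland covariate and 2531 in a fit of only the 4 libraries compared. Against the Tailor mutant, where 13% of the tested features were called, the share was 7.73% with the 2-fold minimum and 3.04% with only the 4 libraries. Leaving out one library in turn gave 276 to 2513 calls against w1118 and 2.51% to 17.2% against the Tailor mutant. The replicate numbers share only a number: deviations of same-numbered Dis3L2 mutant and w1118 libraries correlated at -0.181, and a replicate block gave 851 calls against w1118 and 7.85% against the Tailor mutant. With the numbers crossed, an alternative chosen after seeing the data, the replicate block gave 1419 calls against w1118. The log2 fold change of Dis3l2 stayed between -3.52 and -3.47 under every alternative run. A set of 139 genes and insertions was followed through the alternatives. Some of them are not printed here, and many genes chosen after their values were seen are not among them, such as stai, Gem3, sordd2, Blm and Trf5. Of the 139, 0 reversed under any alternative. With DESeq2 133 kept their side of the threshold, with the replicate block 115 and with the covariate 69, and fewer still did without either w1118 library. Of 102 counts of list members called, 21 moved by over 1.5 times with DESeq2 and 46 without Dis3L2 mutant replicate 2. The causes were not tested. With 2 libraries a group, and a spread shared by all 8, changes in genes of low count or variable level could be missed.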
